A study of Mus musculus with 6 samples.

Results

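Spindle checkpoint, kinetochore and mitotic exit genes were followed through restoration of p53 in mouse lung tumour cells. The set was defined by gene name, as 44 genes, and each gene was read from the array's probe set with the highest mean over all 6 arrays. Of the 44, 38 had a probe set named in the platform annotation, and these 38 all passed the expression filter (log2 4 or above on at least 3 arrays), among 7644 genes tested. Cdca8, Cenpl, Cenpp, Spc24, Fbxo5 and Espl1 had none named there and have no value here.

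The arrays came from KPR4, KPR5 and KPR8, cell lines derived from mouse lung adenocarcinoma on a C57/B6-129SvJae background. Each line was measured once after ethanol vehicle and once after 4-OH tamoxifen at 250 nM, given 24 h before RNA was collected, which makes 3 arrays per treatment. Per the labels, the drug switches p53 expression back on in these cells, so the ethanol cultures are the state without restored p53. No array used here shows the drug in cells that lack the switchable p53, so effects of the drug itself and of p53 cannot be told apart. Whether a line is 1 clone is not stated in the labels, and each line is represented by 1 culture per treatment.

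During mitosis, BUB and MAD proteins at kinetochores without attached microtubules hold back the anaphase-promoting complex (APC/C), a ubiquitin ligase, by binding its activator CDC20. Once all chromosomes are attached the ligase marks securin and cyclin B for destruction, sister chromatids part and the cell leaves mitosis. Most of these genes are transcribed late in the cell cycle through promoter elements called CHR (cell cycle genes homology region), which the MuvB core binds, with B-MYB and FOXM1 when the genes are on and with RB-family proteins, as the DREAM complex, when they are off. p53 is known to lower such genes through p21 and DREAM.

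The mitotic genes were lower after the drug in all 3 lines. Of the 38 measured, 33 fell and 0 rose in limma's test at an adjusted p under 0.05, where 8.94% of all genes tested fell and 10.5% rose. At an unadjusted p under 0.05 the counts were 34 and 0. Falls ran from log2 -0.50 (Cks2) to -1.49 (Bub1b), with adjusted p-values from 8.3e-06 to 0.0169. The median change of the 38 was -0.92, against 0.00 for all genes. By log2 1 or more, 18 members were lower, as were 1.28% of all genes. In 35 members the change was below 0 in each of the 3 lines, which held for 25.7% of all genes. The treated arrays lay below every ethanol array in 30 members, against 8.20% of genes. In bulk RNA, fewer cells in mitosis and less RNA per mitotic cell cannot be told apart. The background counts were lower with any 1 line left out, when fewer arrays enter the fit. With all 3 lines 683 genes fell, against 438 without KPR4, 456 without KPR5 and 420 without KPR8. With all 3 lines 805 rose, against 533 without KPR4, 525 without KPR5 and 613 without KPR8.

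**Figure D1:**
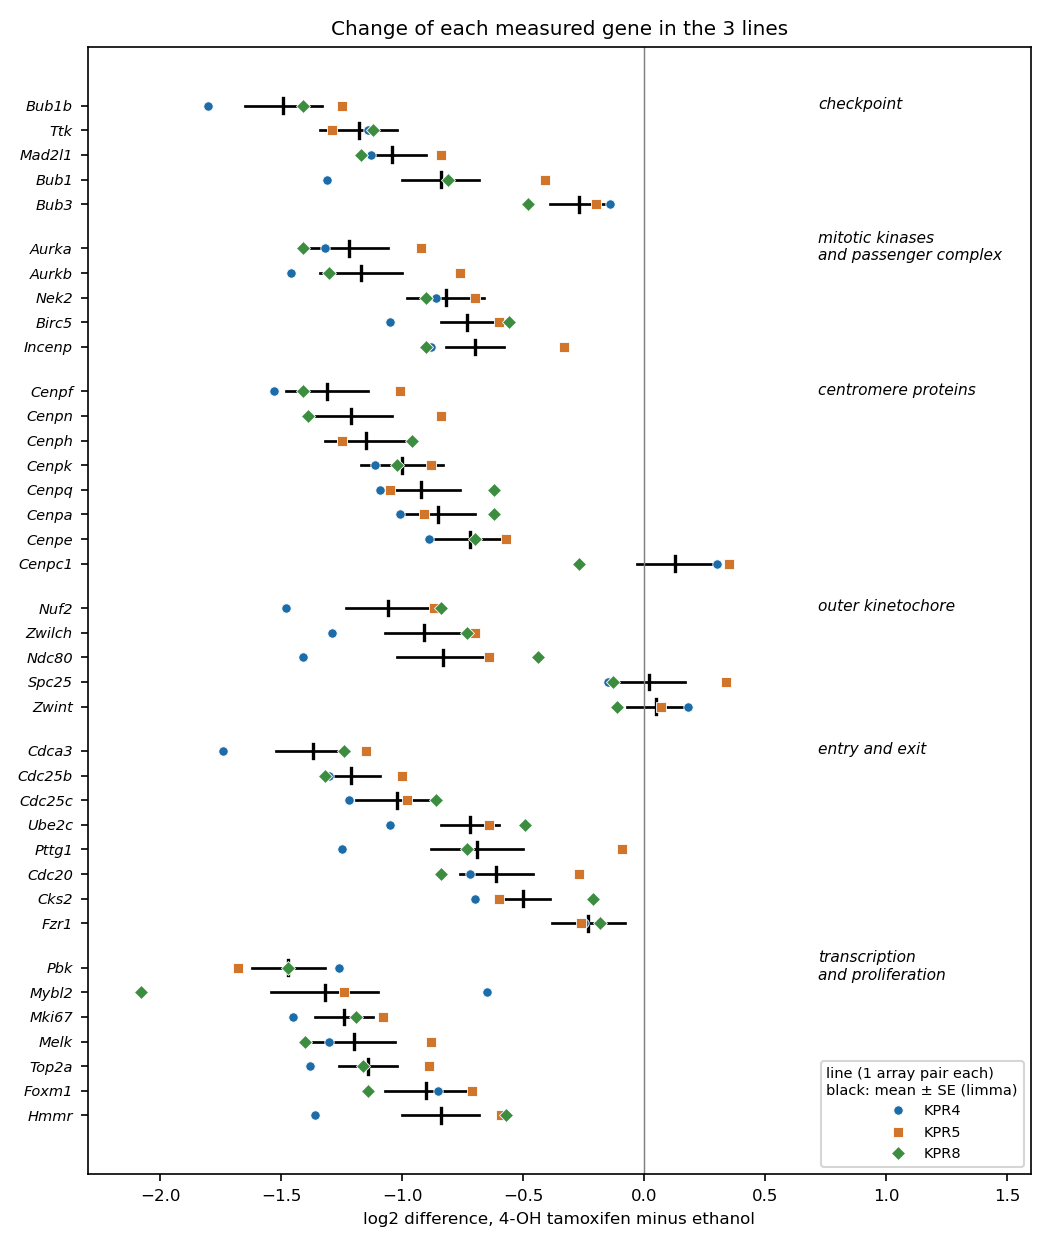
Log2 difference between 4-OH tamoxifen and ethanol (x axis) for each of the 38 measured genes, ordered by role, with 1 coloured point per line and the mean ± SE from limma in black. Most points lie left of 0. Cenpc1, Spc25 and Zwint straddle it, and Bub3 and Fzr1 lie close to it.

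**Figure D2:**
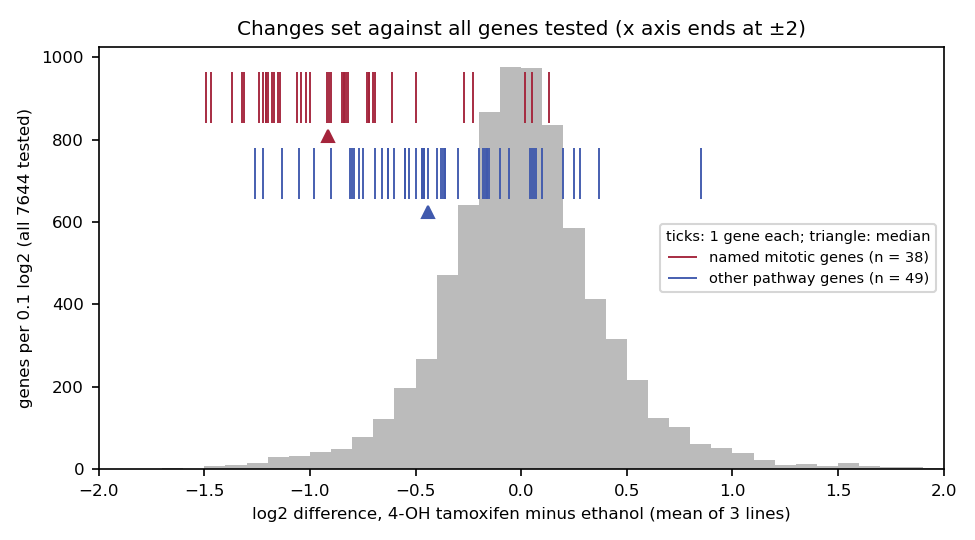
Histogram of the mean log2 difference of all 7644 genes (y axis, genes per 0.1 log2), with red ticks for the 38 mitotic genes and blue ticks for 49 other genes of the same pathway; triangles mark the medians, -0.92 and -0.44. The x axis ends at log2 -2 and 2, so genes beyond are not drawn.

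Promoter sequences are shown so that the letters of a CHR, where present, can be read directly. RefSeq windows on GRCm38.p6, from 250 bases before to 50 after an annotated start, were used for 37 of the 44 genes, 40 in all. The windows used did not cover every chromosome. A gene without a window here, such as Cdc25c, was therefore not searched and may still have one in RefSeq. The letters TTTGAA (CHR) on either strand were in 20 of the 40, or 50%. They were in 12.1% of the 8102 windows used for tested genes and 17.9% of the 32851 windows used in all. The related letters TTCGAA were in 10.0%, against 2.09% and 1.56%. The CCAAT box, letters CCAAT on either strand, the site of the factor NF-Y, was in 80.0%, against 37.4% of both sets. The tandem CDE-CHR element, which contains the CHR and so overlaps that search, was found in 1 member window, that of Cenpf, or 2.50%, against 0.0864% of tested genes' windows. The E2F letters TTTCCCGC and TTTGGCGC were each in 2.50% of member windows, that of Cenpl in both cases, against 2.09% and 1.02%. These are letter matches, not shown to be bound in these cells.

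The 150 bases before the start are printed below, 5′ to 3′ in the gene's direction, with each CHR, TTCGAA and CCAAT match on either strand in capitals (TTCAAA and ATTGG are the reverse-strand forms). The first 5 genes are examples that fell with the drug and hold a CHR there, and no gene that fell without one is printed. Bub3 holds one and did not pass the test. Zwint and Fzr1 did not pass and hold a CCAAT box alone.
Cdc20 (chr4:118437344-118437493, minus strand): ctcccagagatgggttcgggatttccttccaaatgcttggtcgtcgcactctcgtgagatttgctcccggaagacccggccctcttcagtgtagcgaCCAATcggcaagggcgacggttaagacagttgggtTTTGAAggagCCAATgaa
Ube2c (chr2:164769779-164769928, plus strand): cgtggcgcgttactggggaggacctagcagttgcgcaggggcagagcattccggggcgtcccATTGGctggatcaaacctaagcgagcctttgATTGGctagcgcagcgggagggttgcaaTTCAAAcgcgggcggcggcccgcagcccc
Cenpn (chr8:116921590-116921739, plus strand): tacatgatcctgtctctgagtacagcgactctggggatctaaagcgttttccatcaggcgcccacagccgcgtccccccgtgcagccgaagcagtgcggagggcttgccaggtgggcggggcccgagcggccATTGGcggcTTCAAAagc
Mki67 (chr7:135716380-135716529, minus strand): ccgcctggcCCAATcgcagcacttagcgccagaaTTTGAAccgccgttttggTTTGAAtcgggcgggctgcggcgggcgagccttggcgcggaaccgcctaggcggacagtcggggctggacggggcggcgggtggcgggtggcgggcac
Top2a (chr11:99024190-99024339, minus strand): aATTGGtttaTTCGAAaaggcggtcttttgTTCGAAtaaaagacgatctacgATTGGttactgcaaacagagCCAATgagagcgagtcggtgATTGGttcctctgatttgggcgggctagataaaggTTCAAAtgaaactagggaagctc
Bub3 (chr7:131560220-131560369, plus strand): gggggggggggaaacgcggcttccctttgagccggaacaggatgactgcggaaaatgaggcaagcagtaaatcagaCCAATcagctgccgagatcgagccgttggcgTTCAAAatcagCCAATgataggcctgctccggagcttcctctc
Zwint (chr10:72654696-72654845, plus strand): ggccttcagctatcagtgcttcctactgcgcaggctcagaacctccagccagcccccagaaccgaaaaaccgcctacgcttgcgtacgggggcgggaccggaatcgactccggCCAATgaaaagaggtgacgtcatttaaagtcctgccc
Fzr1 (chr10:81378371-81378520, minus strand): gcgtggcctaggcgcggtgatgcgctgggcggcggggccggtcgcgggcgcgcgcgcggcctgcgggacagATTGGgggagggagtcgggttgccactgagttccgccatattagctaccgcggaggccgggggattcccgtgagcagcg
Counted from the start, the CHR began at -18 in Cdc20, -29 in Ube2c and -9 in Cenpn, each with a CCAAT box further upstream. Mki67 held a pair, at -116 and -98. Of 27 genes that fell and had a window, 15 held TTTGAA or TTCGAA and 20 a CCAAT box. Birc5, Mad2l1, Melk and Nuf2 were among those that fell with none of these letters in the window. Of 5 that did not pass, 2 (Bub3 and Spc25) held TTTGAA and 5 a CCAAT box.

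**Figure D3:**
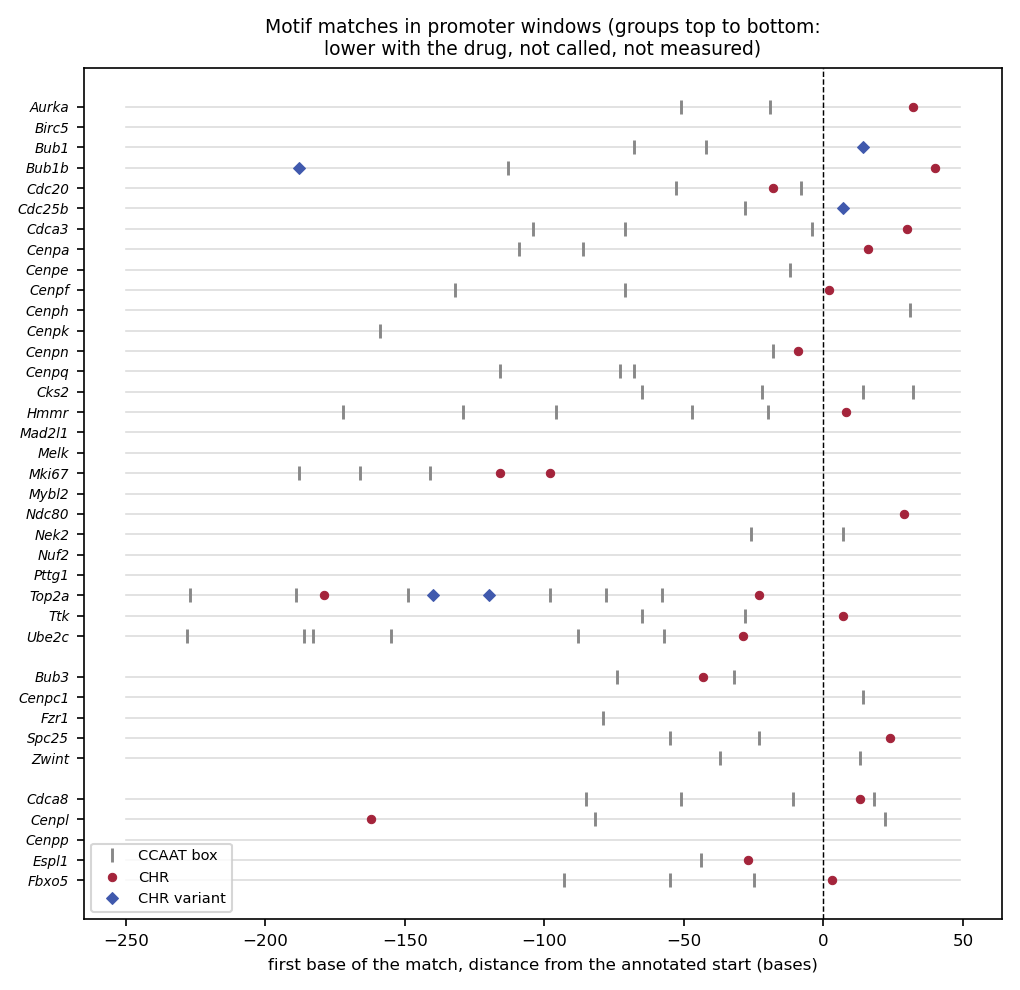
Position of each CHR (TTTGAA), CHR variant (TTCGAA) and CCAAT match along the promoter windows of 37 genes (x axis, bases from the annotated start; 1 window per gene, the one with the lowest coordinate). Rows run from genes that fell, through genes not called, to genes with no probe set. Many CHR matches lie near the start, with CCAAT boxes upstream of them.

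Checkpoint genes fell in 4 of 5 cases. Bub1b, which encodes BUBR1, a core part of the complex that inhibits CDC20, read 9.02, 9.15 and 8.43 on the log2 scale with ethanol, given here and below in the order KPR4, KPR5 and KPR8, and 7.22, 7.90 and 7.01 with the drug. Every treated array was below every ethanol array. The change was -1.49 ± 0.16 (SE, n = 3 lines), 2.80-fold lower, with an adjusted p of 1.6e-05 in limma, and ranked 4 among the falls of all genes. Ttk, the MPS1 kinase that starts checkpoint signalling, went from 7.24, 7.97 and 7.74 to 6.11, 6.67 and 6.62. Its changes of -1.14, -1.29 and -1.12 in KPR4, KPR5 and KPR8 were nearly equal (mean -1.18 ± 0.16, adjusted p = 1.5e-04). Mad2l1, whose product MAD2 captures CDC20, went from 10.02, 10.17 and 9.74 to 8.90, 9.33 and 8.57 (-1.04 ± 0.14, adjusted p = 8.4e-05).

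The kinase gene Bub1, a scaffold at the kinetochore, was level between lines with ethanol (9.98, 10.0 and 10.07) and spread with the drug (8.67, 9.60 and 9.26). Its mean change was -0.84 ± 0.16, with -1.31 in KPR4 and -0.41 in KPR5. Bub3, the WD40 protein that carries BUB1 and BUBR1 to kinetochores, was the member of this group that did not pass: 10.78, 11.0 and 10.92 with ethanol, 10.64, 10.79 and 10.45 with the drug. The groups overlap, and the change was -0.27 (95% interval -0.52 to -0.02, adjusted p = 0.115). A dimmer Bub3 probe set past the filter gave -0.45, while those under the filter gave -0.09 and -0.02. With the mean of the probe sets past the filter, limma's adjusted p was 0.0481.

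All 5 measured mitotic kinases and passenger complex genes fell. The chromosomal passenger complex, Aurora B with INCENP, survivin and borealin, corrects faulty attachments. Aurka, the spindle pole kinase Aurora A, went from 8.51, 8.94 and 8.67 to 7.19, 8.02 and 7.26 (-1.22 ± 0.16, 2.32-fold lower, adjusted p = 9.5e-05). Aurkb, the catalytic part of the passenger complex, went from 8.07, 8.21 and 8.39 to 6.61, 7.46 and 7.09 (-1.17 ± 0.17, adjusted p = 2.8e-04), and a dimmer probe set gave -0.95. In both, all treated arrays were below all ethanol arrays, and KPR5 had the smallest fall.

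Among the partners of Aurora B, Incenp, the scaffold, changed by -0.70 ± 0.12, with -0.88, -0.33 and -0.90 in KPR4, KPR5 and KPR8, but by -1.12 on another probe set past the filter. Birc5, encoding survivin, went from 11.88, 11.98 and 12.27 to 10.84, 11.39 and 11.72 (-0.73 ± 0.11, adjusted p = 3.7e-04). Nek2, a centrosome kinase, was among the dimmer members at 5.47, 5.75 and 5.76 with ethanol and 4.61, 5.05 and 4.87 with the drug. Its change of -0.82 ± 0.16 had an adjusted p of 0.00223.

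Among the centromere proteins 7 of 8 measured genes fell. Cenpf, a large protein of the outer corona of kinetochores, showed the largest fall of this group, from 7.61, 7.96 and 7.97 to 6.08, 6.95 and 6.56 (-1.31 ± 0.17, 2.49-fold lower, adjusted p = 8.3e-05). Cenpn, which reads CENP-A nucleosomes, went from 5.21, 5.46 and 5.71 to 3.82, 4.62 and 4.32. The treated level in KPR4 is under the filter's log2 4 but above the highest bacterial control (2.84). The change was -1.21 ± 0.17 and its second probe set gave -1.19. Cenpa, the centromeric histone H3 variant itself, went from 8.49, 8.78 and 8.96 to 7.47, 7.87 and 8.34 (-0.85 ± 0.15).

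Cenph, Cenpk and Cenpq, of the constitutive inner kinetochore, changed by -1.15 ± 0.17, -1.0 ± 0.17 and -0.92 ± 0.16. All had treated arrays below ethanol arrays. Inner kinetochore genes did not all move alike. Outside the main set, Cenpo changed by -0.55, Cenpx by -0.69 and Cenpt by 0.85. Cenpe, a kinesin that brings chromosomes to the spindle equator, went from 6.38, 5.90 and 5.42 to 5.49, 5.33 and 4.72. Its groups overlap because the lines start at different levels, while each line fell (-0.72 ± 0.16, adjusted p = 0.00639). Without KPR4 its call ended (-0.63, adjusted p = 0.0539). Cenpc1, which encodes CENP-C, the link between centromeric nucleosomes and the outer kinetochore, did not pass. It read 8.12, 7.62 and 8.91 with ethanol and 8.42, 7.97 and 8.65 with the drug, higher in KPR4 and KPR5 and lower in KPR8. The mean was 0.13, with a 95% interval from -0.22 to 0.48.

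**Figure D4:**
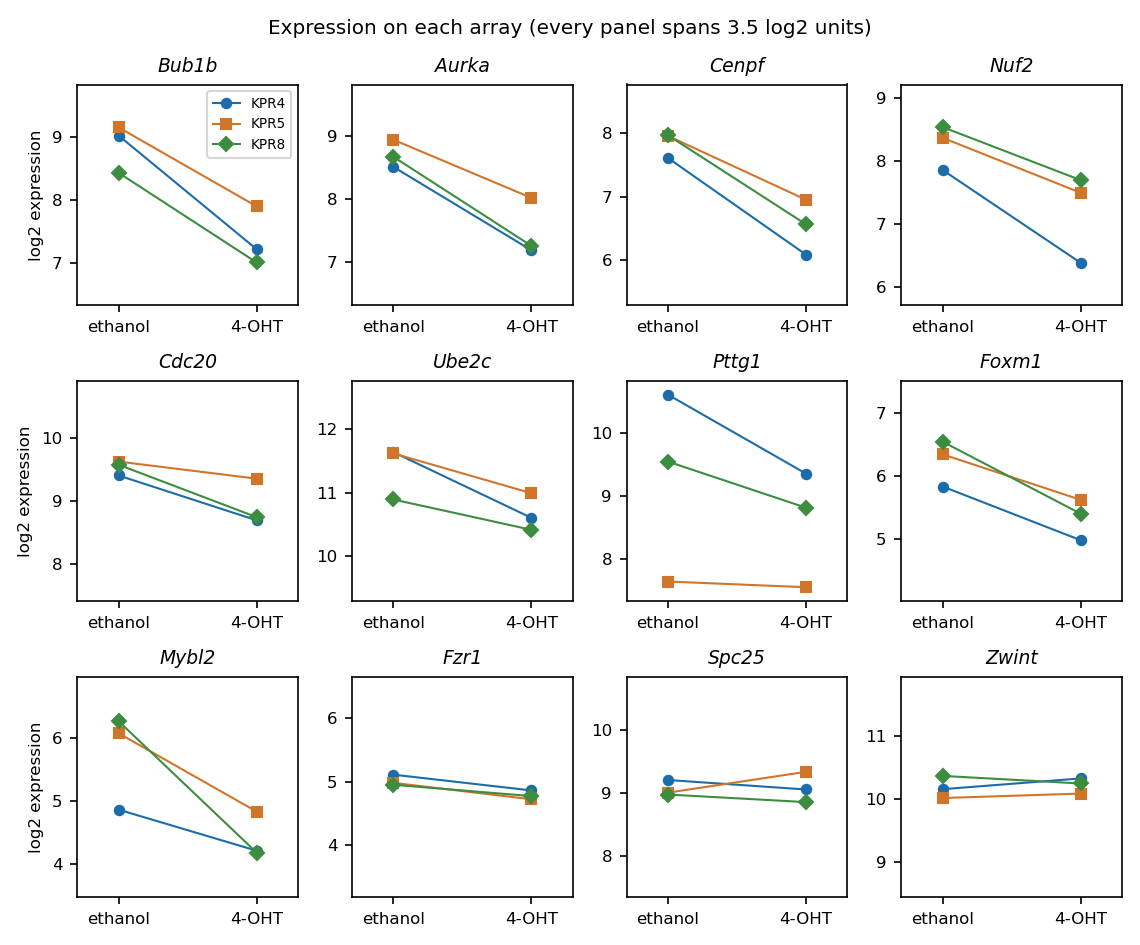
Log2 expression of 12 genes on each array (y axis; every panel spans 3.5 log2 units), ethanol on the left and 4-OH tamoxifen on the right, with 1 line per cell line. Lines slope down for Bub1b, Aurka, Cenpf, Nuf2, Ube2c, Foxm1 and Mybl2. They are near flat for Fzr1, Spc25 and Zwint, and Pttg1 in KPR5 sits far below the other lines.

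Of 5 measured outer kinetochore genes 3 fell. The NDC80 complex is the main microtubule anchor, and 2 of its 3 measured subunit genes fell. Nuf2 went from 7.86, 8.37 and 8.54 to 6.39, 7.50 and 7.70 (-1.06 ± 0.17, 2.09-fold lower, adjusted p = 5.7e-04). Ndc80 went from 5.93, 6.0 and 5.64 to 4.52, 5.36 and 5.19 (-0.83 ± 0.19). It changed by -1.41 in KPR4 and -0.44 in KPR8, and without KPR4 the change was -0.54 and no longer passed (adjusted p = 0.120). Spc25, of the same complex, did not pass. It read 9.20, 9.0 and 8.97 with ethanol and 9.05, 9.33 and 8.85 with the drug, and its groups overlap. The mean was 0.02, with a 95% interval from -0.29 to 0.34 that lies above the estimates for Nuf2 and Ndc80. Without KPR5 the value was -0.14.

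Zwilch, a subunit of the ROD-ZW10-Zwilch complex that recruits checkpoint proteins and dynein, went from 8.87, 9.21 and 9.46 to 7.58, 8.51 and 8.73 (-0.91 ± 0.16, adjusted p = 9.7e-04). Zwint, which ties that complex to the kinetochore, did not pass: it read 10.15, 10.01 and 10.36 with ethanol and 10.32, 10.08 and 10.24 with the drug. Its mean was 0.05 (95% interval -0.22 to 0.31). The other 5 Zwint probe sets lay between -0.21 and -0.05, so the sign depends on the probe set, and the value was -0.02 without KPR4.

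Of 8 measured genes of mitotic entry and exit 7 fell. Cdca3, a mitotic entry factor destroyed by the APC/C, had the largest fall, from 9.98, 10.25 and 9.76 to 8.25, 9.10 and 8.52 (-1.37 ± 0.15, 2.59-fold lower, adjusted p = 1.5e-05). The phosphatases that switch on CDK1 fell too. Cdc25b went from 11.51, 11.10 and 10.73 to 10.21, 10.10 and 9.40 (-1.21 ± 0.12, adjusted p = 8.3e-06). Cdc25c went from 6.51, 6.24 and 6.20 to 5.30, 5.26 and 5.34, with treated levels almost equal between lines (SD 0.04) and a change of -1.02 ± 0.17.

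In the APC/C pathway, Ube2c, the E2 enzyme of the complex, went from 11.64, 11.62 and 10.89 to 10.60, 10.99 and 10.41 (-0.72 ± 0.12, adjusted p = 8.4e-04). The ethanol array of KPR8 lay below the treated array of KPR5, yet each line fell. Cdc20, the mitotic activator and checkpoint target, went from 9.40, 9.62 and 9.57 to 8.69, 9.35 and 8.74 (-0.61 ± 0.15, adjusted p = 0.00959). Its probe sets disagree in size: others gave -1.09 and -0.58. The call on the brightest ended without KPR4 (-0.55, adjusted p = 0.0569) and without KPR8 (-0.49, adjusted p = 0.0879). Cks2, a small subunit of CDK complexes, changed by -0.50 ± 0.11, or -0.82 on its other probe set. Its call on the brighter one needed KPR4 (-0.40 without that line, adjusted p = 0.0718).

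Fzr1 encodes CDH1, the activator that replaces CDC20 in late mitosis and G1. It read 5.11, 4.98 and 4.95 with ethanol and 4.86, 4.72 and 4.77 with the drug. All treated arrays were below all ethanol arrays, but by so little that the test did not pass (-0.23, 95% interval -0.56 to 0.10, adjusted p = 0.330).

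Pttg1, encoding securin, the inhibitor of separase, differed most between lines. It read 10.61, 7.65 and 9.55 with ethanol in KPR4, KPR5 and KPR8, and 9.36, 7.56 and 8.82 after treatment. The line changes were -1.25, -0.09 and -0.73, and over both treatments KPR4 exceeded KPR5 by log2 2.38, or 5.21-fold (limma's F-test between lines, adjusted p = 4.5e-06). A second probe set gave the same order of lines, with 9.79, 6.38 and 8.61 under ethanol, and the third, a dim one, had KPR4 and KPR8 close together and KPR5 lowest, with 5.08, 4.06 and 5.12. In KPR5 both of these read higher with the drug (6.59 and 4.30). The mean change of -0.69 ± 0.19 (adjusted p = 0.0169) shrank to -0.41 without KPR4 (adjusted p = 0.247). Without KPR8 it kept its size but did not pass (-0.67, adjusted p = 0.139), and without KPR5 it was -0.99. With the mean of its 3 probe sets it was -0.51 (adjusted p = 0.0871).

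All 7 genes of transcription and proliferation fell. Foxm1, the forkhead factor that activates late cell cycle genes, went from 5.83, 6.34 and 6.54 to 4.98, 5.62 and 5.40 (-0.90 ± 0.17, adjusted p = 0.00168). Other probe sets past the filter gave -1.48 and -0.67. Mybl2, encoding B-MYB, the partner of MuvB in active cells, was the member with the widest spread of response. It went from 4.86 to 4.21 in KPR4, from 6.07 to 4.83 in KPR5 and from 6.26 to 4.18 in KPR8. The SD over lines was 0.76 with ethanol and 0.37 with the drug. The mean was -1.32 ± 0.22 (2.50-fold lower, adjusted p = 6.4e-04).

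Pbk, a mitotic MAPKK-like kinase, went from 8.72, 9.61 and 9.24 to 7.46, 7.93 and 7.77 (-1.47 ± 0.15, 2.77-fold lower, adjusted p = 1.1e-05). Pbk and Ttk had their largest fall in KPR5 (-1.68 for Pbk), and Cenph fell equally there and in KPR4 after rounding (-1.25). Melk, another kinase of dividing cells, went from 6.37, 7.36 and 7.24 to 5.07, 6.48 and 5.84 (-1.20 ± 0.17), with KPR4 lowest under either treatment. Mki67, the Ki-67 protein that coats mitotic chromosomes and marks proliferating cells, was nearly level between lines, at 10.93, 10.96 and 10.76 with ethanol and 9.48, 9.88 and 9.57 with the drug. Its change was -1.24 ± 0.12 (2.36-fold lower, adjusted p = 8.4e-06). When the line term was left out of the model, 1 gene of all those tested still passed as lower, and it was Mki67 (adjusted p = 0.0449). Top2a, the topoisomerase that untangles sister chromatids, changed by -1.14 ± 0.12. Hmmr, a spindle assembly protein, changed by -0.84 ± 0.16 on its brightest probe set and by -0.47 to -0.22 on the other 3. With the mean of its probe sets it was -0.48 (adjusted p = 0.0467).

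Of dimmer probe sets past the filter, all 14 of the genes that fell had a change below 0. So did those of genes not called, which makes 19 of 19 over the members. The share below 0 over all probe sets was not counted. Under the filter, dimmer probe sets of the genes that fell had mixed signs, from -0.78 (Mybl2) to 0.21 (Cdca3). The falls bore little relation to brightness, with Pearson's r of 0.12 between ethanol level and change over the 38 genes, which share the same 6 arrays.

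The lines differed in how far the genes fell, although 1 array per line and treatment allows no test of that. Over the 33 genes that fell, the median change was -1.25 in KPR4, -0.87 in KPR5 and -0.96 in KPR8. KPR4 had the largest fall in 22 of the 33 and KPR5 the smallest in 20. Ties after rounding were counted for KPR4: Cenph tied with KPR5 (-1.25) and Cenpn with KPR8 (-1.39). The treated KPR4 array held the lowest of the 6 values in 25 genes. Among treated arrays KPR5 was highest in 23. The same counts were not made over all genes that fell, so this order of lines is not shown to be particular to the mitotic genes. Over the 38 measured genes the changes correlated between lines with r of 0.72 (KPR4 and KPR5), 0.59 (KPR4 and KPR8) and 0.73 (KPR5 and KPR8), and over all genes with r of 0.73, 0.66 and 0.62. As a gauge of RNA integrity, the signal at the 3' end of Gapdh less that at its 5' end shifted between treatments by 0.24 (KPR4), 0.29 (KPR5) and -0.40 (KPR8). The same difference for Actb shifted by 0.16, 0.39 and -0.07. The part of these shifts in the falls was not tested.

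Levels of 19 of the 38 genes differed between lines in limma's F-test, against 42.0% of all genes, a share close to that background. With 1 line left out the count was 7 (no KPR4), 12 (no KPR5) and 12 (no KPR8). Of the 19, KPR4 was lowest in 12 and KPR5 highest in 11. The order of lines was not counted over all genes that differed, so it is not shown to be a trait of these 19. After Pttg1 the widest ranges between line means were those of Melk (log2 1.20, adjusted p = 0.0014), Nuf2 (1.0) and Cenpc1 (0.99), with KPR4 lowest for Melk and Nuf2 and KPR5 lowest for Cenpc1. Cdc25b ran the other way for KPR4, with line means of 10.86, 10.60 and 10.06. The other 19, among them Bub1, Mki67, Top2a and Cdc25c, did not pass this test.

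**Figure D5:**
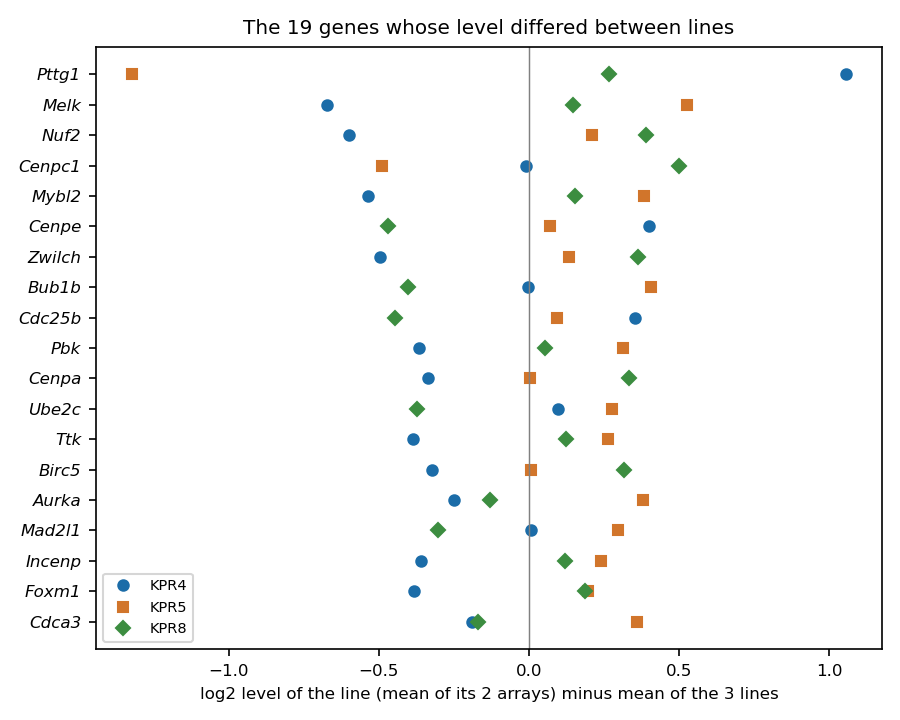
Level of each line (mean of its ethanol and drug arrays) minus the mean of the 3 lines, in log2 (x axis), for the 19 genes that differed between lines in limma's F-test, ordered by range. Pttg1 stands out at the top, with KPR5 far to the left. KPR4 is leftmost for 12 of the 19.

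A further 70 genes of the same pathway, taken from a list by role, gave 49 tested. Of these 24 fell and 1 rose, where 8.94% of all genes tested fell and 10.5% rose. Their median change was -0.44. Without KPR5, 15 fell and 2 rose, the second being Ppp1cb, a catalytic subunit of phosphatase 1 (0.42, adjusted p = 0.0228). Kinetochore genes outside the main set fell in 8 of 10 cases, led by Ska1, a microtubule-binding kinetochore protein (-1.26 ± 0.17, adjusted p = 1.2e-04), and Pmf1 of the MIS12 complex (-0.98 ± 0.18). Checkpoint genes fell in 5 of 8, among them Trip13, the ATPase that remodels MAD2 (-1.22 ± 0.14, adjusted p = 2.9e-05), and Sgo1, which guards centromeric cohesion (-1.05 ± 0.16).

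The gene that rose was Cenpt, a DNA-binding inner kinetochore protein that also recruits NDC80. It went from 6.84, 6.48 and 6.19 to 7.67, 7.65 and 6.75, by 0.85 ± 0.17 (adjusted p = 0.00301). The groups overlap between lines, while each line was higher with the drug.

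APC/C subunits and the E2 gene Ube2s fell in 5 of 13 cases, with a median of -0.36. Ube2s, which extends ubiquitin chains on APC/C substrates, had the largest change of these (-0.81). Exit phosphatases and their regulators fell in 3 of 12 cases, with a median of -0.16. The one past log2 1 was Mastl, the Greatwall kinase that keeps phosphatase 2A inactive in mitosis (-1.13 ± 0.18, adjusted p = 4.6e-04). Of the MuvB core, 1 of 3 genes fell, Lin9 (-0.55, adjusted p = 0.0468), while Lin37 and Rbbp4 had values of 0.04 and 0.06. The Lin9 call ended with any line left out: the change was -0.59 without KPR4 (adjusted p = 0.0865) and -0.72 without KPR8 (adjusted p = 0.0523), and it shrank to -0.33 without KPR5 (adjusted p = 0.337). Of 3 genes that set CDK1 activity at entry, Wee1 (-0.60) and Cks1b (-0.47) fell, and Cdc25a had a value of -0.46 (adjusted p = 0.0655). Wee1 did not pass without KPR5 (-0.56, adjusted p = 0.0809) or KPR8 (-0.54, adjusted p = 0.0821). Cks1b was -0.31 without KPR8 (adjusted p = 0.0424). Without the variance trend Cks1b did not pass (adjusted p = 0.0567) and Cdc25a did (adjusted p = 0.0454).

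Epithelial markers were high on each array (Krt8 between 12.09 and 12.40, Cdh1 between 11.67 and 12.40), whereas 4 of the 5 lung markers, Nkx2-1 (at most 2.83), Sftpb (at most 2.71), Sftpc (at most 3.13) and Sftpd (at most 3.11), were near the bacterial controls. The other lung marker, the alveolar water channel gene Aqp5, read from 7.23 to 10.11, with KPR5 5.55-fold above KPR8 over both treatments. Of the markers of other cells, 3 of 7 fibroblast, 3 of 6 measured leukocyte and 0 of 5 endothelial genes passed the filter. The fibroblast genes past it were Col1a1 (5.41 to 7.73), Col1a2 (4.51 to 5.59) and Pdgfra (3.82 to 4.99). Among leukocyte genes Cd14 read from 6.42 to 9.23, Cd68 from 3.42 to 4.83 and Cd3e from 3.53 to 4.37, while the pan-leukocyte gene Ptprc did not exceed 2.05. Among endothelial genes Kdr (3.62 to 4.01) and Pecam1 (2.98 to 3.43) were above the bacterial controls on all 6 arrays, and Cdh5 did not exceed 2.83. The markers past the test were Epcam (-0.37), Cdh1 (0.30) and Cd68 (1.02). The calls of Epcam (-0.40 to -0.33, adjusted p from 0.0927 to 0.259) and Cdh1 (0.20 to 0.35, adjusted p from 0.070 to 0.161) ended with any line left out. The part of these markers in the falls above was not tested. Summed log2 levels of these lists ran from 28.6 to 30.5 with ethanol and 27.7 to 30.3 with the drug for fibroblasts, 21.1 to 23.7 and 21.8 to 25.1 for leukocytes, and 15.2 to 16.0 and 14.6 to 15.6 for endothelium.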

How the data were processed

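Total RNA (100 ng per sample) was amplified and hybridised to 6 single-colour arrays, per the labels. The authors deposited log2 expression per probe set, and the submitters' processing notes name GCRMA (2.20.0) and R (2.11.0). That method equalises the arrays (medians 4.56 to 4.63), which would hide a shift shared by most genes. No detection calls or scanner files were used, and background was read from 27 Bacillus control probe sets (1.13 to 2.84).

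Of 22690 probe sets, 20380 carried 1 gene symbol, for 12393 genes; probe sets with several symbols (691) named no gene. Probe sets at log2 4 or above on at least 3 arrays were kept, then the one with the highest mean per gene. Changes were fitted with limma 3.58.1 in R 4.3.3 with terms for line and treatment, a variance trend, 2 residual and 12.9 prior degrees of freedom, and Benjamini-Hochberg adjustment over 7644 genes (2-sided, threshold 0.05). The lines are the replicates, and 3 of them limit the precision. Pairing by line comes from the stated design; deviations from the group means correlated at 0.876, 0.737 and 0.761 within KPR4, KPR5 and KPR8. SEs are limma's moderated ones. The fit was tested on simulated data. The members and lists were chosen with earlier results of these data known, so no test of a list was made. All members could be named; of other genes the 5 largest falls and rises past the threshold, others for contrast after their values were seen. Promoter windows are RefSeq's on GRCm38.p6, and those used did not cover every chromosome. Alternatives covered the line term, each line left out, filters, scaling, probe sets, the variance trend and a background floor.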

Additional observations from a re-analysis of the deposited data

How the results depend on the processing

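The count of 33 lower members was the same with no filter, either rescaling of the arrays, no variance trend and a background floor. With the mean of probe sets it was also 33, but Bub3 passed and Pttg1 did not. The count was 27 with a stricter filter, which tests fewer genes, and 28 to 33 with 1 line left out. Without the replicate block (the line term) it was 1; all genes lower were then 1 and higher 22, and the other pathway genes lower and higher 0 and 0. The spread between lines then enters the error. With 1 line left out, genes lower ran from 420 to 456, genes higher from 525 to 613, other pathway genes lower from 15 to 16 and higher from 1 to 2, and members that differ between lines from 7 to 12; fewer arrays enter each fit. The members' median change ran from -1.03 to -0.85 over the lines left out. The values that changed sign belong to genes not called. Zwint was -0.02 without KPR4 and -0.08 with the mean of its probe sets past the filter. Spc25 was -0.14 without KPR5. With each line left out, Zwint ran from -0.02 to 0.12 and Spc25 from -0.14 to 0.11. Rescaling moved the median of all genes by 0.005 and -0.011.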
